A study of Homo sapiens with 4 samples.

Results

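The 10 genes described here encode the integrin subunits of keratinocytes other than the hemidesmosome pair, namely the alpha subunits ITGA1, ITGA2, ITGA3, ITGA5, ITGA9 and ITGAV and the beta subunits ITGB1, ITGB5, ITGB6 and ITGB8. They were chosen by symbol, and all 10 were found among 44591 genes, of which 19233 are protein-coding. The samples are 4 replicates of HaCaT cells, human keratinocytes that became immortal in culture, left untreated and grown, per the labels, in DMEM with 12% fetal bovine serum. RNA was sequenced in each, and the study's methods give another serum concentration. The study used these data to compare the levels of sirtuin genes before work on resveratrol and irradiated skin. All replicates share this condition, so there is no treated or mutant group, and the comparisons below are between genes within a replicate and between replicates. The study calls the replicates biological repeats, and the labels only number them.

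Integrins are receptors of the cell surface, each made of an alpha and a beta chain that together set which matrix protein is bound. Adaptors such as talin and kindlin bind the tail of the beta chain and link it to actin. In the epidermis integrins are mainly carried by the basal layer, where ITGA6 with ITGB4 anchors the cell at hemidesmosomes while ITGB1 with ITGA2 or ITGA3 forms collagen and laminin receptors. ITGAV pairs with ITGB5, ITGB6 or ITGB8, and the pairs with ITGB6 and ITGB8 are known for the activation of latent TGF-beta.

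Levels are given as TPM over protein-coding genes, that is, counts per gene length scaled to a sum of 1000000 in each library, so that genes can be compared within a library. Replicate 1 had a total count of 73082279, the others of 17056035 to 19745170, and protein-coding genes took 76.1% of it in replicate 1 and 95.3% to 96.4% in the others. Replicate 1 therefore stood apart before any integrin was read, and results that change without it are also given for replicates 2 to 4. The label as keratinocytes was checked with markers. All 8 keratinocyte markers were above 1 TPM in every replicate, with a summed level of 10874 to 16028 TPM, led by the basal keratins KRT14 (6847 ± 561 TPM, SD, n = 4) and KRT5 (3244 ± 1504 TPM). None of the 7 fibroblast markers passed 1 TPM in every replicate (summed 5.20 to 9.70 TPM), nor did any of the 3 endothelial markers (summed 0.859 to 2.36 TPM, with PECAM1 at 0 counts). Of 6 leukocyte markers, CD14 and CD68 passed (summed 11.3 to 53.0 TPM), while PTPRC had 3 counts in replicate 1 and 0 in the others. Of 4 melanocyte markers 1, PMEL, passed (summed 1.36 to 3.52 TPM), and TYR was at 0. Some markers that did not pass still exceeded 1 TPM in part of the replicates. Examples were COL1A1 (8.54 TPM in replicate 4), LUM (3.35 TPM in replicate 1) and VWF (2.36 TPM in replicate 1). In bulk RNA, fewer cells of a type and less RNA per cell cannot be told apart.

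Of the 10 integrin genes, 8 were above 1 TPM in every replicate, where 56.7% of all protein-coding genes were. The exceptions were ITGA1, which was at 0.90 TPM in replicate 3, and ITGA9. The summed level of the 10 genes was 781, 950, 522 and 1038 TPM in replicates 1 to 4 (823 ± 227 TPM; errors after ± are SDs over 4 replicates). ITGA3 and ITGB1 held the first and second rank in every replicate and together took more of the sum than the other 8 genes did. ITGA3 ranked first in replicates 2 to 4 and ITGB1 in replicate 1.

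**Figure D1:**
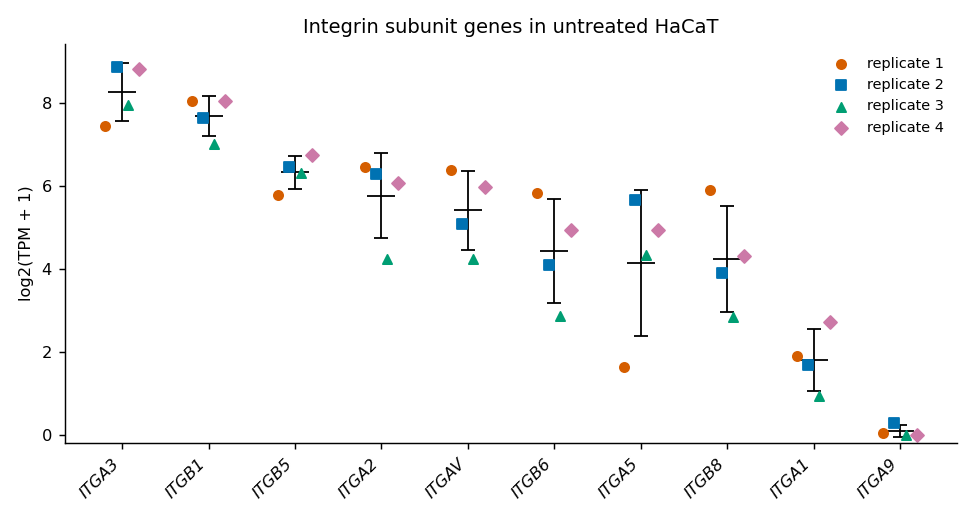
Level of each of the 10 integrin genes as log2(TPM + 1), in the order of the mean TPM. Symbols are the replicates, and the lines give the mean and SD of log2(TPM + 1) over 4 replicates. ITGA3 and ITGB1 lie highest and ITGA1 and ITGA9 lowest, and replicate 1 of ITGA5 (2.13 TPM) lies far under its other 3 points.

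ITGA3, whose product pairs with ITGB1 as a receptor for laminins of the basement membrane, had the highest mean. ITGA3 lies at chr17:48133332-48167849 on the plus strand (hg19, as in the deposited files, which also holds for the genes below). Its level was 173, 469, 246 and 456 TPM in replicates 1 to 4 (336 ± 149 TPM), from 11124 to 21137 counts. The mean stood at percentile 96.7 of the protein-coding genes with a mean above 1 TPM. Replicate 1 was the lowest, at 0.44 times the mean of the others.

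ITGB1, at chr10:33189246-33247293 on the minus strand, encodes the beta chain that most of these alpha chains share. It was at 264, 200, 129 and 262 TPM (214 ± 64.0 TPM), from 4738 to 26236 counts and at percentile 94.2 of the genes. Replicates 1 and 4 were nearly level and replicate 3 was the lowest. ITGA3 was above ITGB1 by 0.58 ± 0.82 on the scale of log2(TPM + 1), which is used for all differences between genes below. This difference was within its spread (exact two-sided sign-flip permutation test, p = 0.25). It was 0.98 ± 0.22 without replicate 1, with ITGA3 higher in all 3 remaining replicates.

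The collagen receptors differed in level. ITGA2, at chr5:52285156-52390609 on the plus strand, encodes the main collagen-binding alpha chain of keratinocytes and was at 87.1, 77.8, 18.0 and 66.4 TPM (62.3 ± 30.7 TPM). Replicate 3 was low and the other 3 lay close together. ITGA1, at chr5:52084136-52249485 on the same strand, encodes the other collagen-binding alpha chain and was at 2.74, 2.23, 0.90 and 5.65 TPM (2.88 ± 2.003 TPM), from 39 to 319 counts. ITGA2 was higher than ITGA1 in 4 of 4 replicates, by 3.96 ± 0.73, beyond the spread (p = 0.125, exact sign-flip permutation test). The interval of ITGA1 contains the gene PELO on the same strand, with 890 to 2452 counts. How reads shared by the 2 genes were counted is not given in the sources used here, so the ITGA1 level is uncertain. It also depends on the length used, deposited as 4796 bases. With the union of annotated exons, 18566 bases, ITGA1 was at 1.37 TPM, and ITGA2 minus ITGA1 was 5.47 ± 0.76. With exons of protein-coding transcripts, 10757 bases, the values were 1.75 TPM and 4.85 ± 0.75. ITGA2 was lower than ITGA3 in 4 of 4 replicates, with a difference of -2.50 ± 1.13.

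ITGA9, at chr3:37493813-37861281 on the plus strand, encodes an alpha chain that pairs with ITGB1 and binds tenascin-C. It had 4, 6, 0 and 0 counts in replicates 1 to 4, which is 0.04 and 0.23 TPM in the first and second. For replicates 3 and 4, a count of 0 allows up to 0.0842 and 0.102 TPM, the level of 3 counts. Such limits cover counting error only. A transcript on the opposite strand, ENSG00000235257.4, had 14 to 185 counts, and without strand information its reads cannot be told from those of ITGA9. ITGA9 is therefore near or under the limit of detection here.

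ITGA5 and ITGAV are the alpha chains of the main fibronectin receptors, and ITGA5 varied more than any other gene of the 10 above 1 TPM by highest over lowest replicate. ITGA5, at chr12:54789045-54813050 on the minus strand, was at 2.13, 49.8, 19.2 and 29.7 TPM (25.2 ± 19.96 TPM), from 220, 1408, 734 and 941 counts. The highest replicate was 23.4 times the lowest, and the mean of replicates 2 to 4 was 15.5 times replicate 1, which was also the deepest library. ITGAV, at chr2:187454790-187545629 on the plus strand, was at 82.3, 33.0, 17.9 and 62.1 TPM (48.8 ± 28.9 TPM). Here replicate 1 was the highest.

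With the deposited gene lengths, the order of ITGA5 and ITGAV turned between replicates. Per length, the ratio of ITGA5 to ITGAV counts was 0.026 in replicate 1 (95% Clopper-Pearson interval 0.023 to 0.030). It was 1.51 in replicate 2 (1.41 to 1.62), 1.07 in replicate 3 (0.977 to 1.18) and 0.478 in replicate 4 (0.444 to 0.514). The mean difference was -1.27 ± 2.40, with ITGA5 lower in 2 of 4 replicates, and was within the spread (p = 0.5, exact sign-flip permutation test). Without replicate 1 it was -0.12 ± 0.83. ITGA5 was lower in 4 of 4 replicates with the union of annotated exons as length (-1.90 ± 2.40) and without length correction (-2.08 ± 2.52).

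The beta chains that pair with ITGAV were ordered with ITGB5 first in replicates 2 to 4. ITGB5, at chr3:124480795-124606152 on the minus strand, encodes a vitronectin receptor chain and was at 54.3, 87.2, 78.8 and 107 TPM (81.8 ± 21.8 TPM). Its CV of 26.7% was the smallest of the 9 genes with a mean above 1 TPM. ITGB6, at chr2:160956177-161056824 on the minus strand, encodes a chain known mainly from epithelia and was at 55.9, 16.2, 6.29 and 29.9 TPM (27.1 ± 21.5 TPM). ITGB8, at chr7:20370725-20455382 on the plus strand, was at 59.2, 13.9, 6.16 and 19.1 TPM (24.6 ± 23.7 TPM). For both, replicate 1 was the highest and replicate 3 the lowest. Without replicate 1 the means were 17.5 ± 11.9 TPM for ITGB6 and 13.1 ± 6.49 TPM for ITGB8 (n = 3). A transcript on the strand opposite ITGB8, LOC101927811, had 433 counts in replicate 1 and 11 to 46 in the others, against 12630 and 486 to 1246 for ITGB8.

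In replicate 1 the 3 beta chains were level with each other, and in the others ITGB5 was well above. Of the summed TPM of ITGB5, ITGB6 and ITGB8, ITGB5 took 32.1% in replicate 1 and 68.6% to 86.4% in replicates 2 to 4. ITGB6 was lower than ITGB5 in 3 of 4 replicates, with a difference of -1.89 ± 1.46 that was not beyond its spread by the rule used (p = 0.25, exact sign-flip permutation test), and of -2.54 ± 0.84 without replicate 1. With the deposited lengths ITGB6 and ITGB8 did not differ beyond their spread. Their counts per length were in a ratio of 0.944 (0.915 to 0.973), 1.16 (1.04 to 1.30), 1.02 (0.876 to 1.19) and 1.57 (1.45 to 1.71) in replicates 1 to 4. The difference of ITGB6 and ITGB8 was 0.19 ± 0.31 (p = 0.375, exact sign-flip permutation test). It depended on the length used: with the union of annotated exons ITGB6 was higher in 4 of 4 replicates (0.95 ± 0.32), and without length correction it was lower in 4 of 4 (-0.68 ± 0.32), both beyond the spread.

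**Figure D2:**
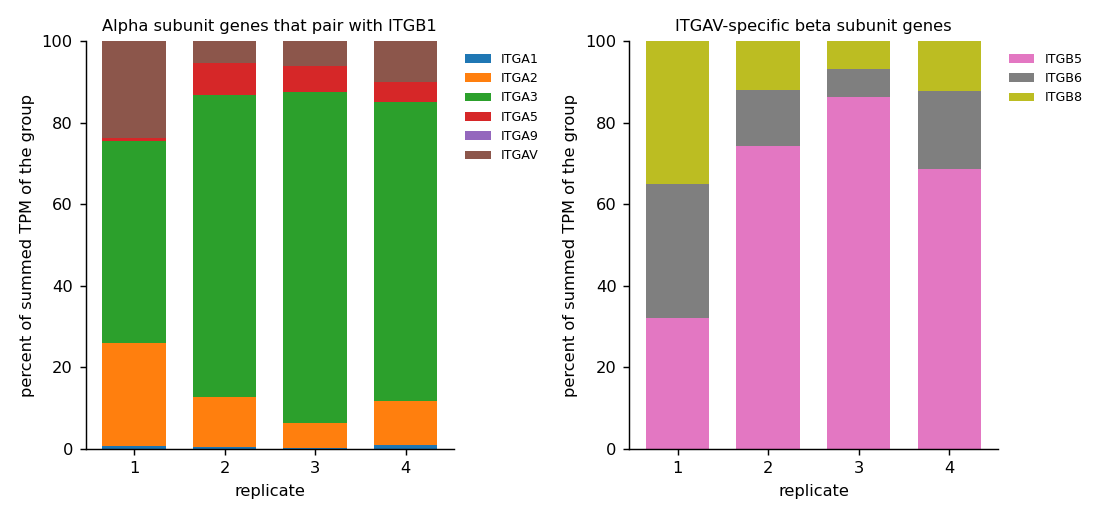
Percent of the summed TPM of the group taken by each gene in each replicate. Left, the 6 alpha chains described here that can pair with ITGB1, and right, ITGB5, ITGB6 and ITGB8. ITGA3 takes 49.8% on the left in replicate 1 and 73.6% to 81.4% in the others, and ITGB5 takes 32.1% on the right in replicate 1 and 68.6% to 86.4% in the others.

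The shares of the sum show the same split. ITGB1 took 33.8% of the summed TPM in replicate 1 and 21.1% to 25.3% in the others. ITGB8 took 7.59% in replicate 1 and 1.18% to 1.84% in the others. ITGA5 took 0.27% in replicate 1 and 2.86% to 5.25% in the others. Among the 6 alpha chains that can pair with ITGB1 and are described here, ITGA3 made up 49.8% in replicate 1 and 73.6% to 81.4% in replicates 2 to 4.

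Promoter sequence is shown for ITGB6, ITGB8 and ITGA5. ITGB8 and ITGA5 had the highest and lowest ratio of replicate 1 to the others. ITGB6 and ITGB8 were both highest in replicate 1 and lowest in replicate 3. So were ITGA2, ITGAV and ITGB1, whose windows are not shown. The windows are the 250 bases before the start of the gene, from RefSeq on GRCh38.p14, and 8 of the 10 genes matched the RefSeq table, with 12 starts. They lie at chr2:160200273-160200522 on the minus strand for ITGB6, chr7:20330650-20330899 on the plus strand for ITGB8 and chr12:54419267-54419516 on the minus strand for ITGA5. Capitals mark the GC box, GGGCGG, or CCGCCC where it is on the other strand.
ITGB6: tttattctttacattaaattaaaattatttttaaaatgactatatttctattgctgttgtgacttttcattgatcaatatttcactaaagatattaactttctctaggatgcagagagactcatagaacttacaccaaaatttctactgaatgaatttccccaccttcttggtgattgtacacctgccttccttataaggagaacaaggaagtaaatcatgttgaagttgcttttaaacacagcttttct
ITGB8: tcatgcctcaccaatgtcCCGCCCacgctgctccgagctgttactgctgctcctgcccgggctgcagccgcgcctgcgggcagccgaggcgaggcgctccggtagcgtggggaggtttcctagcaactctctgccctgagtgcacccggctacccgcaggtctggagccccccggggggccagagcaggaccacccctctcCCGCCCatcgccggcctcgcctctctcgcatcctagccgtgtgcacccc
ITGA5: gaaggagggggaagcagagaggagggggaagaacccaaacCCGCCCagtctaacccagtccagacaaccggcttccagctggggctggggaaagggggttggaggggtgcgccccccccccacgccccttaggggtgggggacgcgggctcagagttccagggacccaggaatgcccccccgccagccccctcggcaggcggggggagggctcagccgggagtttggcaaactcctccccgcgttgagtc

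The ITGB6 window had 30% GC, 0 CpG and no GC box. That of ITGB8 had 71.2% GC, 21 CpG and 2 GC boxes, and that of ITGA5 had 70% GC, 12 CpG and 1 GC box. Over 35116 windows of this length the median was 58% GC and 11 CpG, and 42.6% held a GC box on either strand. The AP-1 motif TGANTCA was in none of the 12 windows and in 6.57% of all windows. The windows of ITGB6 and ITGB8 were unlike in composition, and these matches describe letters only.

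The order of the 10 means was ITGA3, ITGB1, ITGB5, ITGA2, ITGAV, ITGB6, ITGA5, ITGB8, ITGA1 and ITGA9. It was not kept under every alternative. For example, the mean of ITGA2 (113 TPM) was above that of ITGB5 (102 TPM) with the union of annotated exons as length. ITGA5 was above ITGB6 with TPM over all genes (22.3 and 16.3 TPM) and with values as deposited (16.1 and 14.6). The neighbouring pairs were taken from the order first given, in the same replicates, so their tests describe it and give it no separate support. A pair was taken to differ beyond its spread where the sign was the same in 4 of 4 replicates and the mean difference exceeded its SD. Of the 9 neighbouring pairs, 4 did so. These were ITGB1 over ITGB5 (1.36 ± 0.65), ITGAV over ITGB6 (0.98 ± 0.34), ITGB8 over ITGA1 (2.43 ± 1.08) and ITGA1 over ITGA9 (1.73 ± 0.77). The last rests on a gene near 0 and depends on the pseudocount. ITGB5 and ITGA2 (0.56 ± 1.15), ITGA2 and ITGAV (0.35 ± 0.58), ITGB6 and ITGA5 (0.29 ± 2.69) and ITGA5 and ITGB8 (-0.10 ± 2.82) did not differ beyond their spread. Without replicate 1 the sign turned for ITGB6 minus ITGA5 (-1.01 ± 0.88) and for ITGA5 minus ITGB8 (1.29 ± 0.60), and 6 of 9 neighbours passed. With a replicate left out, the rule asks for the same sign in the remaining replicates only. That is easier to pass, so the 2 counts are not alike. The smallest p that 4 replicates allow in the exact two-sided sign-flip permutation test is 0.125, so 0.05 could not be reached, and after Benjamini-Hochberg adjustment over the 9 pairs the smallest was 0.225.

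**Figure D3:**
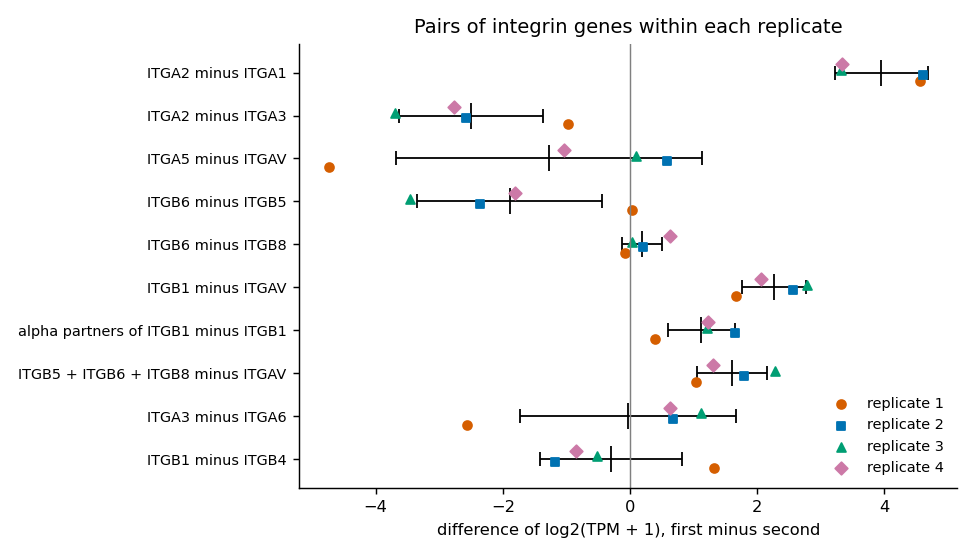
Differences of log2(TPM + 1), first gene minus second, within each replicate for the 10 pairs. Symbols are the replicates, and the lines give the mean and SD. ITGA2 minus ITGA1 (3.96 ± 0.73) and ITGB1 minus ITGAV (2.27 ± 0.50) have all 4 points above 0, while ITGA5 minus ITGAV and ITGA3 minus ITGA6 have replicate 1 far from the others.

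Of 10 pairs set by shared ligand or partner, 5 differed beyond their spread. Without replicate 1, 8 did, by the rule for the remaining replicates, which is easier to pass. With all 4 replicates the smallest adjusted p over the 10 pairs was 0.25 in the exact sign-flip permutation test. ITGB1 was above ITGAV by 2.27 ± 0.50, higher in 4 of 4 replicates. The alpha chains among the 10 genes that can pair with ITGB1, summed, were above ITGB1 by 1.13 ± 0.53, at 1.31 to 3.16 times its level. This sum is not the full set of partners. Other alpha chains that can pair with ITGB1, such as ITGA6 and ITGA4 (mean 10.5 TPM), are not in it. ITGB5, ITGB6 and ITGB8 summed were above ITGAV by 1.61 ± 0.55, at 2.06 to 5.09 times its level, higher in 4 of 4 replicates. RNA ratios are not ratios of chains at the surface.

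Against the hemidesmosome pair, the 2 laminin-binding alpha chains changed places. ITGA6 was at 1022, 294, 113 and 293 TPM, and ITGB4 at 105, 453, 186 and 471 TPM. The difference of ITGA3 and ITGA6 was -2.56 in replicate 1 and 0.64 to 1.11 in replicates 2 to 4 (mean -0.03 ± 1.70, p = 1 in the exact sign-flip permutation test). Without replicate 1 it was 0.81 ± 0.26. The difference of ITGB1 and ITGB4 was -0.30 ± 1.12 (p = 0.625, exact sign-flip permutation test), and -0.85 ± 0.33 without replicate 1.

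Replicate 1 was the highest of the 4 for 5 of the 9 genes with a mean above 1 TPM (ITGA2, ITGAV, ITGB1, ITGB6 and ITGB8), where it was the highest for 40.2% of all such genes. It was the lowest for 3 of 9 (ITGA3, ITGA5 and ITGB5), against 37.5% of all genes. Replicates 2 and 4 were each the highest for 2 of 9, against 23.3% of all genes. Replicate 3 was the highest for 0 of 9 and replicates 2 and 4 were the lowest for 0 of 9, where the shares of all genes were 13.3%, 9.47% and 12.9%. The difference in log2(TPM + 1) of replicate 1 from the mean TPM of the others ranged from -3.44 for ITGA5 to 2.10 for ITGB8. Its median over the 9 genes was 0.42, and over all genes with a mean above 1 TPM it was -0.00024. The median CV of the 9 genes was 59.2% over 4 replicates and 49.7% over replicates 2 to 4, and the medians of all genes with a mean above 1 TPM were 37.8% and 24.8%. None of the 9 genes had a replicate outlying by Dixon's criterion, which 9.82% of all genes with a mean above 1 TPM had.

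**Figure D4:**
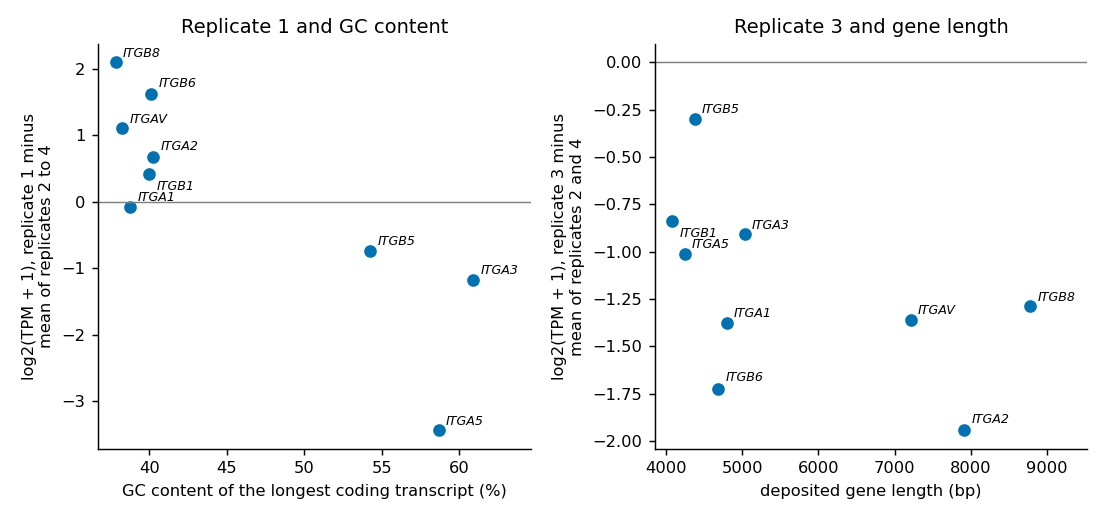
The 9 integrin genes with a mean above 1 TPM. Left, log2(TPM + 1) of replicate 1 minus that of the mean TPM of replicates 2 to 4, against the GC content of the longest coding transcript in percent; right, the same for replicate 3 against replicates 2 and 4, by deposited gene length in bases. ITGA5 lies at -3.44 and ITGB8 at 2.10 on the left, and all 9 genes lie under 0 on the right.

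GC content moved with these differences. Transcripts of ITGA3, ITGA5 and ITGB5, lower in replicate 1, had 60.9%, 58.7% and 54.3% GC, and those of the 5 genes higher in replicate 1 had 37.8% to 40.2% GC. Over the 9 genes Spearman's rho of the replicate 1 difference with GC content was -0.78, and over 11889 genes it was -0.51. These correlations are across genes of the same libraries and describe them only. ITGA1, with 38.8% GC, was at 0.93 times the mean of the others in replicate 1. The part of GC content in the differences of replicate 1 was not tested.

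Replicate 3 was the lowest for 6 of the 9 genes, against 40.2% of all genes. Its difference in log2(TPM + 1) from the mean TPM of replicates 2 and 4 was -0.30 for ITGB5 and -0.84 to -1.94 for the others, with a median of -1.29 where all genes had -0.32. The genes are long: the median length of the 9 was 4796 bases, and 3276 bases over all genes with a mean above 1 TPM. Over all genes the replicate 3 difference had a Spearman's rho of -0.52 with length and over the 9 genes of -0.53. The part of length was not tested.

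Other integrin genes were read beside the 10. Of all protein-coding genes, 56.7% passed 1 TPM in every replicate, the share to set beside the counts of these and later lists. Of 10 leukocyte and platelet integrin genes, 3 passed 1 TPM in every replicate. These were ITGA4 (10.5 ± 5.15 TPM), ITGB7 (9.59 ± 2.25 TPM) and ITGAE (7.95 ± 1.98 TPM), whose products are known from lymphocytes. ITGB3, which could also pair with ITGAV, had 16 counts in replicate 1 and 0 in the others. ITGB2 was between 0 and 0.98 TPM. Of the remaining 5 integrin genes only ITGBL1, which encodes a secreted protein resembling a beta chain, passed (17.6 ± 5.84 TPM), and ITGA8 had 0 counts.

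Genes acting inside the cell on integrin tails were read next. Of 20 genes of activators and adaptors, 15 were above 1 TPM in every replicate, where 56.7% of all protein-coding genes were. The median level of the 20 was 57.7 TPM. The highest were the tensin TNS4 (187 ± 147 TPM), paxillin PXN (158 ± 94.2 TPM), vinculin VCL (157 ± 49.3 TPM) and the integrin-linked kinase ILK (148 ± 24.3 TPM). Among kindlins, FERMT1, the epithelial form, was at 98.2 ± 23.3 TPM, FERMT2 at 19.4 ± 5.36 TPM and FERMT3, the blood cell form, at 0.56 to 4.303 TPM. Talin TLN1 was at 58.5 ± 23.7 TPM. Of 4 genes whose products restrain integrins, 3 passed, namely FLNA (632 ± 368 TPM), SHARPIN (65.9 ± 12.1 TPM) and ITGB1BP1 (45.1 ± 5.53 TPM), while DOK1 had a mean of 1.03 TPM. All 9 genes of tetraspanins and other membrane partners passed, led by SLC3A2 (809 ± 313 TPM), BSG (674 ± 242 TPM), CAV1 (539 ± 88.7 TPM) and CD9 (445 ± 134 TPM). CD151, the tetraspanin bound to ITGA3, was at 434 ± 35.4 TPM.

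Genes of ligands were read beside their receptors. Of 8 laminin genes 7 passed 1 TPM in every replicate, among them LAMB3 (612 ± 195 TPM), LAMA5 (205 ± 150 TPM) and LAMC1 (135 ± 61.4 TPM). LAMA3 and LAMB3 encode chains of a laminin bound by ITGA3 with ITGB1, and LAMA3 was at 112 ± 48.7 TPM. Of 7 collagen genes 3 passed, all of collagen IV: COL4A2 (122 ± 83.2 TPM), COL4A1 (30.9 ± 19.9 TPM) and COL4A5 (17.6 ± 16.5 TPM). COL1A1 was at 3.96 ± 3.57 TPM.

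Of 9 genes of RGD and other ligands, 4 passed. FN1, encoding fibronectin, the ligand of ITGA5 with ITGB1, was at 6.85, 169, 140 and 401 TPM. THBS1 was at 48.6, 465, 287 and 328 TPM, CYR61 at 2.17, 53.1, 46.3 and 63.5 TPM and TNC at 5.41, 19.01, 9.41 and 32.9 TPM. These 4 genes were lowest in replicate 1, as 37.5% of all genes with a mean above 1 TPM were. Of the 6 genes of the list with such a mean 5 were, and FBN1 (0.59 to 1.89 TPM) was lowest in replicate 3. VTN, encoding the vitronectin bound by ITGAV with ITGB5, was at 0 to 2.06 TPM, and SPP1 at 0. Vitronectin is also carried in by serum, which RNA does not show.

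**Figure D5:**
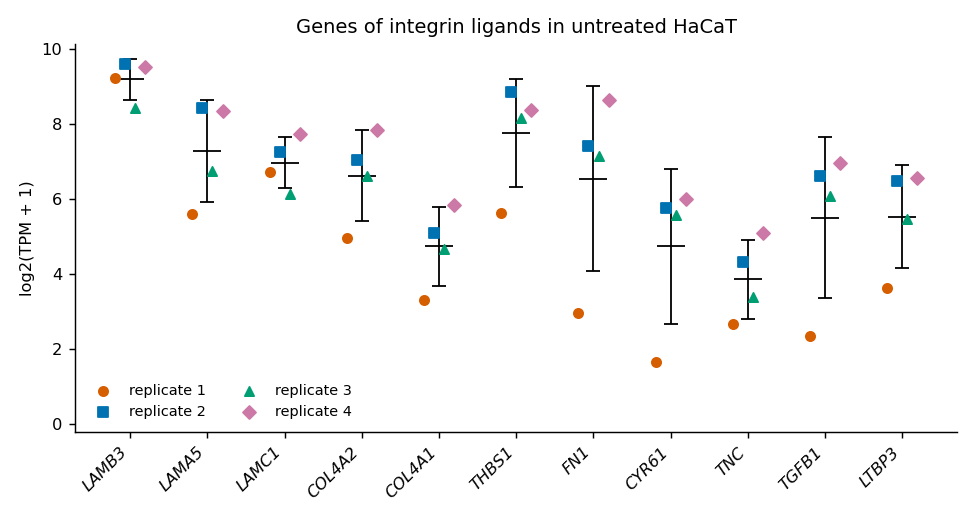
Levels of ligand genes as log2(TPM + 1). Symbols are the replicates, and the lines give the mean and SD over 4 replicates. FN1 (6.85 TPM), CYR61 (2.17 TPM) and TGFB1 (4.07 TPM) have their lowest point in replicate 1, while LAMB3 and LAMC1 have theirs in replicate 3.

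Of 6 genes of latent TGF-beta, 2 passed. TGFB1, whose latent product is activated by ITGAV with ITGB6 or ITGB8, was at 4.07, 97.8, 66.6 and 124 TPM, and LTBP3 at 59.2 ± 39.2 TPM. TGFB1 was thus lowest in replicate 1, where ITGB6 and ITGB8 were highest. Replicate 1 was the lowest for 37.5% and the highest for 40.2% of all genes with a mean above 1 TPM. It was the lowest for all 4 such genes of this list. GC content was 63.5% for TGFB1, 40.1% for ITGB6 and 37.8% for ITGB8. A link between these genes was not tested. TGFB2 was at 0.61 to 4.34 TPM.

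For each integrin gene with a mean above 1 TPM, the gene with the most similar pattern over the 4 replicates was sought. The 66 candidates were genes of the fixed lists and the other integrin genes described here, all with a mean above 1 TPM. Likeness was measured by the largest difference of centred log2(TPM + 1) in any replicate. The matches with small differences included COL4A6 for ITGAV (0.12), LAMB2 for ITGB6 (0.19), ITGA6 for ITGB8 (0.24), LIMS1 for ITGB1 (0.27) and CD82 for ITGB5 (0.27). The differences were larger for ITGA5 with ZYX (0.33), ITGA1 with TNS3 (0.37) and ITGA2 with TNS1 (0.56). COL4A6 (0.84 to 5.95 TPM) and TNS1 (0.38 to 2.58 TPM) were low. The pseudocount narrows differences at such levels, so the matches with these genes depend on it. With 4 replicates such likeness is a description of levels only.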

How the data were processed

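RNA-seq of 4 replicates of untreated HaCaT was analysed, with groups taken from the labels. The authors deposited counts per gene for every replicate, with gene length and position, and RPKM for replicates 1 and 2 and TPM for replicates 3 and 4. The submitters' processing notes name hg19, Bowtie2, TopHat2, HISAT and HISAT2 without role or order. The counting program, the annotation and strandedness are not given in the sources used here. Because the deposited RPKM and TPM differ in scale, TPM over protein-coding genes was computed from the deposited counts and lengths in each replicate. Differences of log2(TPM + 1) understate the change of low genes.

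The integrin genes and gene lists were chosen with earlier results of these data known. Named were the 10 genes, ITGA6, ITGB4, the 4 highest genes of each list, genes sharing a binding partner, genes with an outlying replicate where fewer than 6, and the nearest gene in pattern; 1 gene that this rule names is not reported here. GC content came from the longest protein-coding transcript in GENCODE 29, found for 97.7% of genes. Total counts were 17056035 to 73082279, and a library's floor was 3 counts. Since the reads carry no molecular identifiers, they may not be separate molecules, and intervals cover counting error only. P-values rest on the differences within these replicates and do not measure their spread. In the exact sign-flip permutation test with 4 replicates, p is 0.125 whenever all signs agree. Scripts were tested on simulated data. No count model was fitted, since there is 1 group; scaling factors came from edgeR 4.0.16 and DESeq2 1.42.0 (R 4.3.3). Calculations ran in SciPy 1.17.1 and NumPy 2.4.6, with tables in pandas 2.3.3 and plots in matplotlib 3.10.9, under Python 3.11.15. Alternatives were TMM, DESeq2 and upper-quartile scaling, TPM over all genes, values as deposited, no length correction, other lengths, pseudocounts and thresholds, a count filter and leaving out each replicate.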

Additional observations from a re-analysis of the deposited data

Results flagged for a closer look

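In 102 sets of 4 values, 7 had a replicate farther from the others than Dixon's 95% criterion allows, and 6 of these were in replicate 1. Chance at 1 in 20 gives 5.1, and of all genes with a mean above 1 TPM 9.82% had such a replicate. The share of ITGB8 in the summed TPM of the 10 integrin genes reached 7.59% in replicate 1, where replicates 2 to 4 had 1.18% to 1.84%. The difference of ITGA3 and ITGA6 was -2.56 on the log2 scale in replicate 1 and 0.64 to 1.11 in the others. The total count of replicate 1 was 73082279, and those of the others were 17056035 to 19745170.

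BSG, encoding basigin, was at 315 TPM in replicate 1 and 758 to 848 TPM in the others. CD9, encoding a tetraspanin, was at 644 TPM in replicate 1 and 353 to 399 TPM in the others. PERP, a keratinocyte marker of desmosomes, was at 634 TPM in replicate 1 and 136 to 191 TPM in the others. LIMS1, encoding an adaptor that binds ILK, was at 14.3 TPM in replicate 3 and 20.6 to 21.3 TPM in the others.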

How the results depend on the processing

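Of 283 differences between genes recomputed under an alternative, 276 kept their sign. Alternatives that only scale a whole library change such a difference through the pseudocount alone, so they could hardly turn a sign. Of 129 levels 117 moved by less than the SD between replicates. That SD was wide: ITGB8 counted as unmoved at 12.1 as deposited, against 24.6 TPM with an SD of 23.7. These counts therefore do not show that the results are stable. No paired analysis was possible because there is 1 group of samples and so no second group to pair with it, while genes were compared within replicates. The sign turned for ITGA5 minus ITGB8 (0.077 with TPM over all genes, 0.040 with values as deposited), for ITGB5 minus ITGA2 (-0.28) and ITGB6 minus ITGB8 (-0.68) without length correction, and without replicate 1 for ITGA5 minus ITGB8 (1.29), ITGB6 minus ITGA5 (-1.01) and ITGA3 minus ITGA6 (0.81). The cause was not tested. Leaving out each replicate in turn gave -0.72 to 1.29 for ITGA5 minus ITGB8, -1.01 to 0.91 for ITGB6 minus ITGA5 and -0.42 to 0.81 for ITGA3 minus ITGA6. It gave 5 to 8 of 10 pairs beyond their spread, the 8 without replicate 1, and 4 to 6 of 9 neighbours. The rule then asked for the same sign in the remaining replicates only. The median level of the 10 genes in a replicate, 40.7 TPM as a mean over replicates, was 23.4 with values as deposited, 109 (counts scaled to 1000000) without length correction and 59.2 with the union of annotated exons as length. The number of integrin genes with an outlying replicate, 0, was 1 with TPM over all genes (ITGA9) and 2 with values as deposited (ITGA1 and ITGA9). Exons of protein-coding transcripts as length, an alternative chosen after seeing the data, turned no sign. With the union of annotated exons ITGB6 minus ITGB8 was 0.95 and passed the rule for differing beyond the spread, as it did in the opposite direction without length correction. With a pseudocount of 0 ITGA1 minus ITGA9 had no value, under the count filter ITGA9 had none, and Dixon's criterion needs 4 replicates. The integrin genes above the detection threshold were 7 at 5 TPM, with TPM over all genes and with values as deposited. They were 9 at 0.1 TPM, above 3 counts, with TMM, DESeq2 or upper-quartile scaling, without length correction and without replicate 3. Shares of all genes were not computed under these settings, nor for outlying replicates under other settings, so the counts describe the list only. Depth limits ITGA9.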
